A study of Mus musculus with 6 samples.

Results

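Solute carriers are membrane proteins that move sugars, amino acids, ions, metals, nucleotides and other small molecules across cell and organelle membranes, and their genes carry the symbol Slc with a number for each family. The members described here are the protein-coding mouse genes whose symbol begins with Slc and a number, without the organic anion family named Slco. Of the 9822 genes in the count tables, 133 were such members, from 40 families, chosen by name alone. The largest families were the mitochondrial carriers, Slc25, with 31 members, the nucleotide sugar carriers, Slc35, with 15, and the zinc importers, Slc39, with 8. The symbols of 4 members are not those of transporters, namely the scaffolds Slc9a3r1 and Slc9a3r2, Slc7a6os and Slc4a1ap, and none of these 4 was called.

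Platelets have no nucleus, and their RNA comes from the megakaryocytes that shed them. They take up serotonin from plasma through the transporter SLC6A4 and pack it into dense granules through the vesicular amine carrier encoded by Slc18a2. They burn glucose that enters largely through the facilitated carrier GLUT3, the product of Slc2a3, and sodium-calcium exchangers act in their ion balance during activation.

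PolyA RNA was sequenced from purified platelets of male mice on the BalB/c background, in 3 libraries from mice with the genotype Nxf1+/C587R, in which 1 copy of the mRNA export receptor gene Nxf1 carries the C587R change, and 3 from wild-type littermates. Each library was a pool of platelet suspensions of 1 genotype, each suspension having over 98% CD41+ events by flow cytometry. The labels put 1 mutant and 1 wild-type pool in each of 3 batches, the preparations having been made on 3 days, and the 3 wild-type libraries were first deposited in a separate series. Neither the age of the mice nor the number of animals per pool is stated by the labels. P-values therefore cover only the differences among pooled preparations, which may be technical. The comparison asks which platelet transcripts differ with the changed copy of Nxf1. Library totals were 25189231 to 29421549 counts. Nxf1 itself had 3.29 ± 0.894 CPM in mutant against 3.73 ± 1.05 CPM in wild-type libraries (SD, n = 3 each; edgeR adjusted p = 0.604), where CPM is counts scaled to the TMM-adjusted library total, and a missense change need not alter this level. All 10 platelet markers checked were present, with integrin alpha IIb (Itga2b) between 6836 and 9276 CPM. Batch 1 stood apart in both genotypes, with summed erythroid markers several times the level of the other batches, as described below with 3 carriers.

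Carrier transcripts were unevenly distributed. Per kilobase of the deposited gene length, Slc2a3, Slc6a4 and the choline transporter gene Slc44a1 were the most abundant members, with 604, 501 and 427 CPM per kilobase over all 6 libraries. The next was the zinc importer gene Slc39a4 with 90.4, followed by Slc3a2 with 52.5, Slc38a10 with 46.5, Slc24a3 with 39.9, Slc7a5 with 19.95 and, further down, the mitochondrial carrier gene Slc25a39 with 17.8. The order of the first members differed between genotypes. In wild-type libraries Slc2a3 led with 510 ± 58.9 CPM per kilobase (SD, n = 3), Slc44a1 had 339 ± 39.5 and Slc6a4 had 296 ± 18.5, and the last 2 differed by less than the sum of their SDs. In mutant libraries Slc6a4 had 707 ± 31.2 and Slc2a3 had 697 ± 40.04 CPM per kilobase, a difference smaller than either SD, and Slc44a1 had 516 ± 33.6. The median member had a mean of only 2.87 CPM, beside 3.67 CPM for all listed genes.

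The summed level of all members was 8656, 8432 and 8028 CPM in the mutant libraries of batches 1, 2 and 3, and 5995, 5969 and 5010 CPM in the wild-type libraries. The mutant libraries all lay above the wild-type ones. The 3 members with the highest CPM, Slc2a3, Slc6a4 and Slc44a1, held 76.4 ± 0.191% of this sum in mutant against 69.7 ± 0.841% in wild-type libraries (SD, n = 3 each). Without them the sum was 1980 ± 84.3 CPM in mutant against 1713 ± 163 CPM in wild-type libraries.

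Of the 133 members, 28 rose and 12 fell in mutant platelets (edgeR quasi-likelihood test, Benjamini-Hochberg adjusted p below 0.05 over all genes), and 93 did not pass. The share that rose was 21.1%, beside 12.9% of all genes listed, and the share that fell was 9.02%, beside 9.16%. All 40 called members went the same way in each of the 3 batches, and for 39 of them the genotypes did not overlap. The exception was the UDP-galactose carrier gene Slc35a2. Over all members, mutant libraries lay wholly above wild-type ones for 34 (25.6%, beside 20.4% of all genes) and wholly below for 21 (15.8%, beside 15.9%). With the batch as a block, 43 members were higher and 19 lower, beside 22% and 18% of all genes, and the 40 calls were kept in the same direction. The median log2 fold change, mutant over wild type, was 0.07 for members and -0.04 for all genes, and with library size alone in place of TMM scaling the medians were -0.01 and -0.13. Within batches 1, 2 and 3 the members' median log2 ratio was 0.07, 0.12 and 0.18. Calls were fewer without batch 1 and without batch 2, among members as among all genes. Without batch 1, 25 members (18.8%, of them 15 higher) and 12.2% of all genes were called. Without batch 2 these were 23 members (17.3%, of them 16 higher and 7 lower) and 10.2% of all genes. Without batch 3 calls were more, with 44 of 132 members (33.3%) and 24.4% of all genes.

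Rises made up a larger share of the abundant members than of the scarce ones. Of 41 members with a mean of at least 10 CPM, 18 rose (43.9%) and 2 fell (4.88%), where 29.3% of all genes at that level rose and 12.6% fell. This split depended on the fit. When only genes at that level were tested, scaled on those genes alone, 23 of the 41 were called, beside 49% of all genes tested. In that fit fewer members rose and more fell, as given in the last section. Of 92 members under 10 CPM, 10 rose and 10 fell, 10.9% each, beside 5.6% and 7.63% of all genes at that level. None of the 30 members under 1 CPM rose and 3 fell, and counting error weighs most at that level. Calls of more than 2-fold numbered 4 higher of 133 members, beside 107 of 9822 genes (1.09%). Another 6 members were lower by more than 2-fold, beside 278 of 9822 genes (2.83%). Both shares were larger among members, on small counts. Among the 4 were Slc6a4, Slc25a35 and Slc25a45, and the 6 were Slc27a2, Slc35d3, Slc22a4, Slc10a7, Slc7a11 and Slc31a1. Members outside the rule for named genes, given here and below to fill small counts, were picked after their values were seen.

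**Figure D1:**
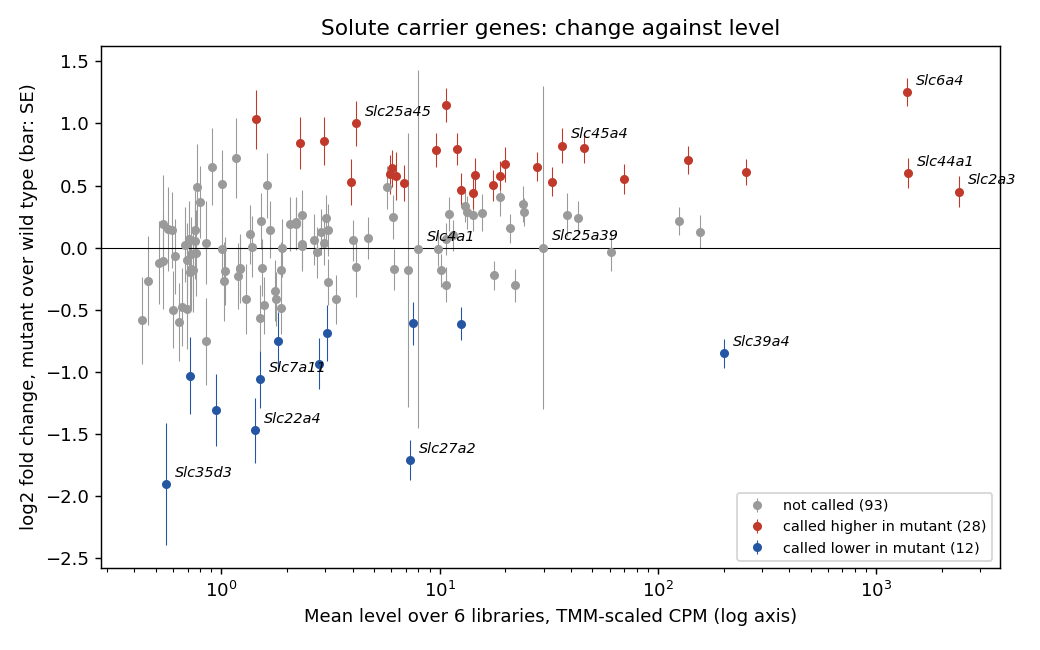
Log2 fold change (mutant over wild type, bars are SE) of the 133 solute carrier genes against their mean level over 6 libraries in TMM-scaled CPM on a log axis. Of the members, 28 were called higher and 12 lower, and the lower calls sit mostly under 10 CPM, with Slc39a4 as the abundant exception. The 3 red cell carriers have long bars, of which Slc4a1 and Slc25a39 are marked.

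The amine carriers held the most changed abundant member. Slc6a4, the plasma membrane serotonin transporter gene (Entrez 15567, chromosome 11, 76998597 to 77032343, GRCm38), had 2011, 1845 and 1966 CPM in the mutant libraries of batches 1, 2 and 3, and 856, 829 and 758 CPM in the wild-type ones. Every mutant library thus held more than any wild-type library, and within each genotype the libraries lay close together. The log2 fold change was 1.25 ± 0.12 (SE, edgeR adjusted p = 2.94e-07), and the ratios within batches were 1.23, 1.15 and 1.38 on the log2 scale. Slc18a2, which encodes the vesicular carrier that loads serotonin into granules, had 21.1, 14.4 and 16.1 CPM in mutant against 15.7, 15.01 and 11.9 CPM in wild-type libraries. These libraries overlapped, and the log2 fold change of 0.28 ± 0.15 (approximate 95% interval -0.01 to 0.57) was not called (edgeR adjusted p = 0.2). Of 18 alternatives only the block in edgeR called it (adjusted p = 0.00292, against 0.11 with the block in DESeq2). The dopamine transporter gene Slc6a3 rose at a low level, from 1.64 ± 0.256 to 2.94 ± 0.329 CPM, a log2 fold change of 0.85 ± 0.21 (edgeR adjusted p = 0.00574). That call was lost without mutant replicate 2 (0.0546) and without batch 2 (0.111). The taurine transporter gene Slc6a6 had a log2 fold change of 0.36 (edgeR adjusted p = 0.0882) and was called with the block in edgeR. Of these 4 amine carrier genes 2 rose and 0 fell, beside 12.9% and 9.16% of all genes. With the block 4 were higher, beside 22% of all genes.

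Of 5 sugar carriers 3 rose and 0 fell, beside 12.9% and 9.16% of all genes. Slc2a3, the GLUT3 gene (Entrez 20527, chromosome 6), had 2787, 2905 and 2591 CPM in mutant against 2134, 2169 and 1749 CPM in wild-type libraries. The groups did not overlap, and the log2 fold change was 0.45 ± 0.12 (edgeR adjusted p = 0.0104). On the TMM scale batch 3 was lowest in both genotypes, and its TMM factors were the largest, 1.051 in mutant and 1.186 in wild type. It was not called without mutant replicate 1 (0.104), mutant replicate 2 (0.154), batch 1 (0.163) or batch 2 (0.193). Slc45a4, of the family of putative sugar carriers, had 54.9, 38.1 and 46.02 CPM in mutant against 30.7, 23.3 and 24.7 CPM in wild-type libraries. Its log2 fold change was 0.82 ± 0.14 (edgeR adjusted p = 0.000265), lost without batch 3 (0.118). Slc2a9, a urate carrier of the GLUT family, rose (0.44, edgeR adjusted p = 0.0185), a call lost with library size alone (0.108), among genes of at least 10 CPM (0.0819), without mutant replicate 2 (0.227), wild-type replicate 1 (0.0973), batch 1 (0.0887) or batch 2 (0.239). The 2 scarce members, Slc37a1 and Slc50a1, did not pass. The glucose carrier gene Slc2a1 and the lactate carrier genes Slc16a1 and Slc16a3 were not analysed here.

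Among carriers of lipids and choline the directions were opposed. Slc44a1, the choline transporter gene (Entrez 100434, chromosome 4), had 1794, 1703 and 1574 CPM in mutant against 1150.5, 1218 and 968 CPM in wild-type libraries. On the log2 scale the change was 0.60 ± 0.12 (edgeR adjusted p = 0.00124), with adjusted p = 0.0715 without batch 1. Its relative Slc44a2, whose product carries a neutrophil antigen and is also made in platelets, rose from 26.8 ± 1.86 to 38.8 ± 4.48 CPM, a log2 fold change of 0.53 ± 0.12 (edgeR adjusted p = 0.00285). That call was lost without batch 2 (0.113) and with library size alone (0.0579). Slc27a2, the gene of a fatty acid transport protein that also activates very long chain fatty acids (Entrez 26458, chromosome 2), had 2.91, 3.59 and 3.75 CPM in mutant against 12.2, 11.5 and 9.82 CPM in wild-type libraries. It had the most significant fall of any member, a log2 fold change of -1.71 ± 0.16 (edgeR adjusted p = 3.1e-07), and the within-batch ratios were -2.03, -1.65 and -1.37 on the log2 scale. It was called in all 17 alternatives in which it was tested.

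**Figure D2:**
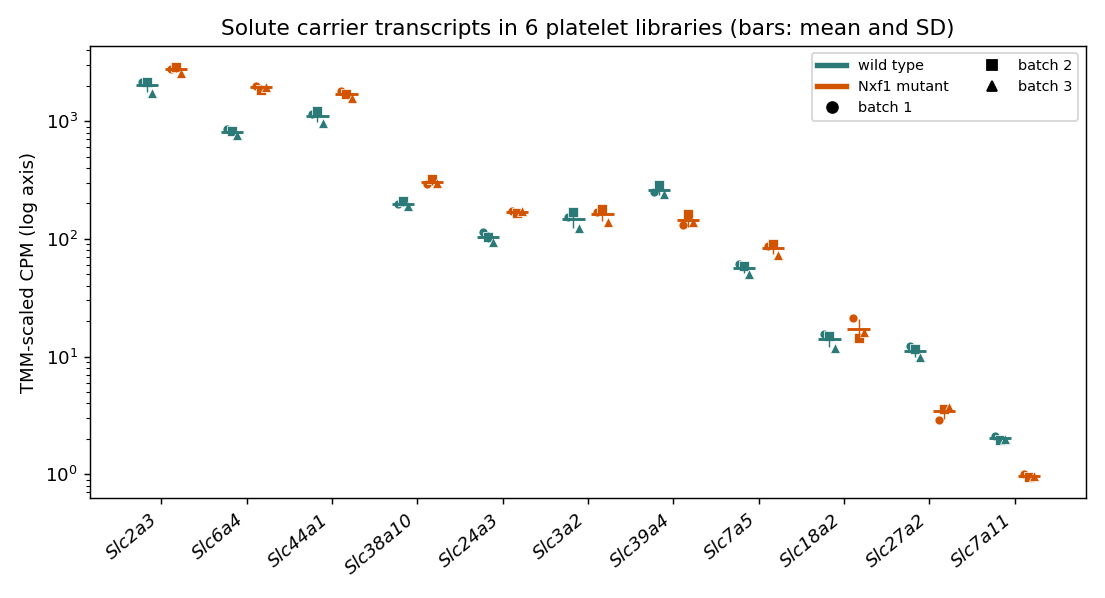
TMM-scaled CPM of 11 solute carrier genes in the 3 wild-type and 3 mutant libraries, on a log axis, with 1 symbol per batch and bars for mean and SD. The genotypes overlap for Slc3a2 and Slc18a2 and are separate for the other genes shown.

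Of 18 carriers of inorganic ions 4 rose (22.2%) and 0 fell, beside 12.9% and 9.16% of all genes. With the block 6 were higher, beside 22% of all genes. Slc24a3, which encodes a sodium-calcium-potassium exchanger, had 171, 167 and 172 CPM in mutant against 114, 104 and 94.3 CPM in wild-type libraries. On the log2 scale the change was 0.71 ± 0.11 (edgeR adjusted p = 0.000126), and the mutant libraries differed among themselves by less than the wild-type ones did. Slc24a5 of the same family (0.50) and the phosphate carrier gene Slc20a2 (0.64) also rose, and each overlaps another listed gene, Myef2 and Smim19, so that their counts are uncertain without strand. Both calls were lost without batch 1 (0.102 and 0.0541), and that of Slc24a5 also without batch 2 (0.0515), mutant replicate 1 (0.0516) and mutant replicate 2 (0.0529).

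Ion carriers without a call included members with known roles in blood cells. The sodium-potassium-chloride cotransporter gene Slc12a2 was at the lower edge of detection, with 0.571 ± 0.111 and 0.823 ± 0.216 CPM and adjusted p = 0.301 by edgeR. Slc4a2, an anion exchanger gene and the member of the bicarbonate family with the smallest p, had a log2 fold change of 0.24 ± 0.18 (edgeR adjusted p = 0.392). The mitochondrial calcium exchanger gene Slc8b1 was not analysed here.

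Of 15 metal carriers 4 rose (26.7%) and 3 fell (20%), beside 12.9% and 9.16% of all genes. Slc39a4 encodes the zinc importer ZIP4, known for zinc uptake in the gut (Entrez 72027, chromosome 15, 76612383 to 76618506, GRCm38). It had 130, 162 and 139 CPM in mutant against 252, 285 and 239 CPM in wild-type libraries. It was the only member above 100 CPM that fell, and the log2 fold change was -0.85 ± 0.12 (edgeR adjusted p = 3.33e-05), with a call in all 18 alternatives. Slc39a7, for the zinc carrier of the endoplasmic reticulum (-0.75), fell as well, while Slc39a13 (0.86), Slc39a11 (0.59) and Slc39a1 (0.46) of the same importer family rose. Slc30a1, the gene of the zinc exporter ZnT1 of the plasma membrane, had 29.3, 22.6 and 21.5 CPM in mutant against 18.01, 14.8 and 13.4 CPM in wild-type libraries, a log2 fold change of 0.67 ± 0.14 (edgeR adjusted p = 0.00169). The other 4 zinc exporter genes of the Slc30 family did not pass. The copper importer gene Slc31a1 fell at a low level, from 0.975 ± 0.164 to 0.469 ± 0.114 CPM. Slc30a1, Slc31a1 and Slc39a11 each overlap another listed gene, so their counts are uncertain. Calls were lost without batch 1 for Slc39a13 (0.0556), Slc39a11 (0.079), Slc39a1 (0.227), Slc39a7 (0.248) and Slc31a1 (0.0678), and without batch 2 for Slc39a11 (0.079), Slc39a1 (0.0874) and Slc31a1 (0.248). Leaving out single libraries also ended the calls of Slc39a1 (4 libraries, highest adjusted p = 0.172), Slc39a7 (3, 0.0861), Slc31a1 (3, 0.0847) and Slc39a11 (mutant replicate 1, 0.0763), and DESeq2 called neither Slc31a1 (0.0686, and 0.135 with the block) nor Slc39a7 (0.0502, and 0.0811 with the block).

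Of 15 amino acid carriers 3 rose (20%) and 2 fell (13.3%), beside 12.9% and 9.16% of all genes. The neutral amino acid carrier gene Slc1a4 had 63.0, 55.5 and 55.7 CPM in mutant against 37.2, 32.5 and 30.4 CPM in wild-type libraries, a log2 fold change of 0.80 ± 0.12 (edgeR adjusted p = 6.48e-05). Slc38a10, the most abundant of its family, rose from 200 ± 9.33 to 304 ± 15.1 CPM, a log2 fold change of 0.61 ± 0.11 (edgeR adjusted p = 0.00033). Slc7a5 and Slc3a2 encode the light and heavy chains of the large neutral amino acid carrier LAT1 and CD98. The light chain gene had 87.5, 90.3 and 72.4 CPM in mutant against 61.4, 58.7 and 50.3 CPM in wild-type libraries, a log2 fold change of 0.55 ± 0.12 (edgeR adjusted p = 0.00261). Its call was lost without mutant replicate 2 (0.056) and without batch 2 (0.112). The heavy chain gene had 168, 179.9 and 138 CPM in mutant against 154, 169 and 123 CPM in wild-type libraries, which overlapped. Its log2 fold change of 0.13 ± 0.13 did not pass (edgeR adjusted p = 0.545, approximate 95% interval -0.13 to 0.39), and whether the 2 chains differed from each other in their change was not tested.

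The amino acid carriers that fell were scarce. Slc7a11, the gene of the cystine-glutamate exchanger that supplies cystine for glutathione, had 1.01, 0.939 and 0.964 CPM in mutant against 2.13, 1.95 and 2.00 CPM in wild-type libraries, a narrow range in each genotype. Its log2 fold change was -1.06 ± 0.23 (edgeR adjusted p = 0.00195), and the call held in all 17 alternatives. Slc38a2, the gene of a sodium-coupled neutral amino acid carrier, fell from 9.13 ± 1.18 to 5.99 ± 1.49 CPM, a log2 fold change of -0.61 ± 0.17 (edgeR adjusted p = 0.0149). This call was lost without mutant replicate 3 (0.0508), wild-type replicate 1 (0.06) or batch 2 (0.0693).

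**Figure D3:**
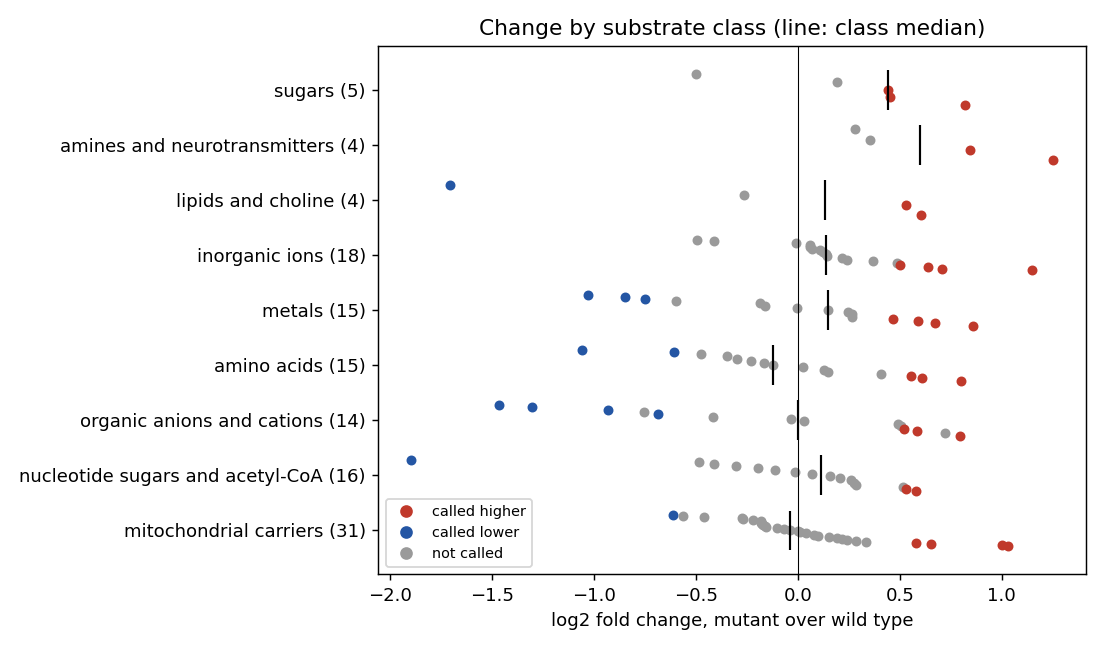
Log2 fold change (mutant over wild type) of solute carrier genes by substrate class, 1 point per gene, with the class median as a line and the number of members in brackets. Sugar, amine and ion carriers had calls in 1 direction, higher, and the other 6 classes had calls in both.

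Mitochondrial carriers, the largest class, had 4 higher (12.9%) and 1 lower (3.23%) of 31, beside 12.9% and 9.16% of all genes. Their median log2 fold change was -0.04, as was that of all genes. With the block 7 were higher and 3 lower, beside 22% and 18% of all genes. Slc25a24, for the carrier that exchanges ATP-magnesium for phosphate, had 35.4, 34.4 and 32.2 CPM in mutant against 21.8, 23.9 and 19.1 CPM in wild-type libraries, a log2 fold change of 0.65 ± 0.12 (edgeR adjusted p = 0.000437). Slc25a45 had 5.29, 6.04 and 5.19 CPM in mutant against 2.24, 3.41 and 2.62 CPM in wild-type libraries, a log2 fold change of 1.00 ± 0.18 (edgeR adjusted p = 0.000448). Slc25a20, for the carnitine-acylcarnitine carrier that brings fatty acids into mitochondria, rose from 15.2 ± 1.72 to 22.8 ± 0.806 CPM, and the scarce Slc25a35 from 0.945 ± 0.0654 to 1.93 ± 0.258 CPM. These 2 calls were lost without batch 1 (0.0777) and without batch 2 (0.0707) respectively. The aspartate-glutamate carrier gene Slc25a12 had 8.87, 9.72 and 11.01 CPM in mutant against 13.7, 16.5 and 15.1 CPM in wild-type libraries, a log2 fold change of -0.61 ± 0.13 (edgeR adjusted p = 0.00214). It was the only mitochondrial carrier that fell, and without batch 2 it had adjusted p = 0.0576.

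The ADP/ATP exchange genes did not pass. Slc25a4 had 11.9 ± 0.869 CPM in mutant against 11.1 ± 0.386 CPM in wild-type libraries (log2 fold change 0.10 ± 0.13, adjusted p = 0.625 by edgeR). Slc25a5 had 15.7, 16.5 and 16.9 CPM in mutant against 17.8, 19.1 and 20.3 CPM in wild-type libraries. Its groups did not overlap, yet the log2 fold change of -0.22 ± 0.12 was not called (edgeR adjusted p = 0.197, 0.0193 with the block in edgeR, 0.15 with it in DESeq2, 0.023 when tested among genes of at least 10 CPM). These genes have close copies and processed pseudogenes, so their counts are uncertain.

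Of the iron, heme and red cell carriers described here, 3 set batch 1 apart from the others in both genotypes. Slc4a1, which encodes the band 3 anion exchanger of the red cell membrane, had 18.4, 1.88 and 3.56 CPM in the mutant libraries of batches 1, 2 and 3, and 20.3, 1.46 and 2.42 CPM in the wild-type ones. Slc25a37, for mitoferrin 1, the iron carrier of erythroid mitochondria, had 13.9, 2.25 and 3.86 CPM in mutant against 16.5, 2.70 and 3.62 CPM in wild-type libraries. Slc25a39, for the mitochondrial glutathione carrier, had 68.5, 9.56 and 11.5 CPM in mutant against 69.5, 8.31 and 11.8 CPM in wild-type libraries. The batch 1 mean was 8.29, 4.88 and 6.69 times that of the other batches for these 3 genes, while 129 of the 133 members lay within 1.5-fold. Slc25a38, for the mitochondrial glycine carrier used in heme synthesis, did not follow, with 9.10 and 11.9 CPM in batch 1 and 9.84 and 10.4 CPM in batch 2. For the heme carrier gene Slc48a1 the batch 1 mean was 1.45 times that of the other batches. For the red cell urea carrier gene Slc14a1 it was 1.04 times. The erythroid marker list, of which 9 of 14 were listed, summed to 31512 and 35710 CPM in batch 1 and to 3972 to 4563 CPM in the other 4 libraries. No difference between genotypes was detectable for the 3 genes. Their log2 fold changes were -0.01 ± 1.44 for Slc4a1 (adjusted p = 0.998), -0.18 ± 1.10 for Slc25a37 (0.934) and 0.00 ± 1.30 for Slc25a39 (1.0, all by edgeR), and with the block their adjusted p-values were 0.645, 0.283 and 0.846. In bulk RNA, fewer cells of a type and less RNA per cell cannot be told apart.

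**Figure D4:**
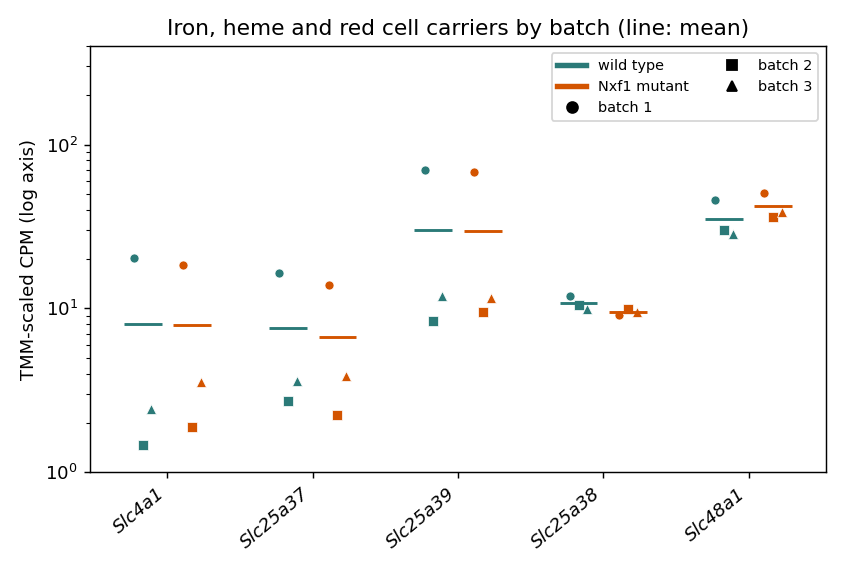
TMM-scaled CPM of 5 iron, heme and red cell carrier genes in the 6 libraries, on a log axis, with 1 symbol per batch and a line for the mean. Slc4a1, Slc25a37 and Slc25a39 are high in batch 1 in both genotypes, and Slc25a38 is not.

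Of 16 carriers of nucleotide sugars and acetyl-CoA 2 rose (12.5%) and 1 fell (6.25%), beside 12.9% and 9.16% of all genes. Slc35d3, needed in mice for platelet dense granules, was represented by 8, 1 and 9 counts in the mutant libraries and 24, 31 and 14 counts in the wild-type ones. This is 0.298, 0.0408 and 0.334 CPM against 0.928, 1.29 and 0.452 CPM, and batch 3 held the smallest gap. On the log2 scale the change was -1.90 ± 0.49 (edgeR adjusted p = 0.00846, and 0.136 without batch 2), and DESeq2 gave it no adjusted p. It was above 0.5 CPM of the deposited total in all wild-type and no mutant library, so its place in the table already rests on the wild-type group. The carriers of UDP-galactose, Slc35a2 (0.58, adjusted p = 0.0365), and of UDP-N-acetylglucosamine, Slc35a3 (0.53, adjusted p = 0.0485, both by edgeR), rose. Both calls were lost with upper-quartile scaling (0.0542 and 0.0721), with library size alone (0.0896 and 0.121) and without batch 1 (0.11 and 0.0852) or batch 2 (0.183 and 0.274). Leaving out 1 library ended them in 4 of 6 fits each, up to adjusted p = 0.269 and 0.213. Slc35a3 was also lost with RLE scaling (0.053), by DESeq2 (0.0798, and 0.0583 with the block) and without batch 3 (0.0904).

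Of 14 carriers of organic anions and cations 3 rose (21.4%) and 4 fell (28.6%), beside 12.9% and 9.16% of all genes. Slc22a3, for the organic cation carrier OCT3, which also takes up monoamines, had 16.1, 15.4 and 14.02 CPM in mutant against 9.43, 9.15 and 7.72 CPM in wild-type libraries. Its log2 fold change was 0.79 ± 0.13 (edgeR adjusted p = 0.000194). Its family relative Slc22a4, for the ergothioneine carrier, fell from 2.10 ± 0.424 to 0.759 ± 0.172 CPM, a log2 fold change of -1.47 ± 0.26 (edgeR adjusted p = 0.000367). Slc10a3 had 1.53, 2.16 and 2.08 CPM in mutant against 3.79, 4.12 and 3.13 CPM in wild-type libraries, and Slc10a7 of the same family fell with a log2 fold change of -1.30. The creatine carrier gene Slc16a12 rose from 11.6 ± 1.42 to 17.3 ± 2.53 CPM, with adjusted p = 0.0041 by edgeR, lost without mutant replicate 1 (0.0729) and without batch 1 (0.0581). The aromatic amino acid carrier gene Slc16a10 fell from 3.77 ± 0.241 to 2.33 ± 0.874 CPM, with adjusted p = 0.0334 by edgeR. That call ended without mutant replicate 2 (0.081), mutant replicate 3 (0.122), wild-type replicate 1 (0.068), wild-type replicate 2 (0.0569), batch 2 (0.158) or batch 3 (0.0818). The urea carrier gene Slc14a2 rose (0.52), a call lost with library size alone (0.0643) and without mutant replicate 1 (0.0574), mutant replicate 2 (0.0889), batch 1 (0.0881) or batch 2 (0.138). Its red cell relative Slc14a1 had -0.41 and did not pass. Outside these classes Slc66a2, of the PQ-loop carriers, had 11.97, 13.3 and 11.1 CPM in mutant against 7.65, 6.86 and 6.59 CPM in wild-type libraries, a log2 fold change of 0.79 ± 0.14 (edgeR adjusted p = 0.000306).

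Of the 40 families, 7 had calls in both directions, 11 only higher, 3 only lower and 19 none, and 18 families held a single member. By the largest number of exons in any GENCODE transcript, the 28 members that rose had a median of 10 exons and a median gene length of 3507 bases, and the 12 that fell 10 exons and 2777 bases. The 93 members without a call also had a median of 10 exons, and 3258 bases. Among all genes the called rises had 9 exons and 3034 bases, and the falls 5 exons and 1969 bases. Genes without a call had 10 exons and 2816.5 bases. In 9 fits that each left out 1 library or batch, 16 of the 40 calls were never lost, 10 higher and 6 lower. The signs of all 40 held in every alternative in which they were tested.

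Other transport proteins were counted beside the carriers. Of 20 P-type ATPases 5 rose (25%) and 1 fell (5%), and of 19 ABC transporters 5 rose (26.3%) and 1 fell (5.26%). Of 18 V-ATPase subunits 5 rose (27.8%) and 2 fell (11.1%). Of 19 carriers outside the Slc names 3 rose (15.8%) and 1 fell (5.26%). Among all genes 12.9% rose and 9.16% fell, and among the solute carrier members 21.1% and 9.02%. The calcium pump gene of the dense tubular system, Atp2a3, rose from 4477 to 7337 CPM. Mfsd2b, for the sphingosine-1-phosphate exporter of platelets and red cells, rose with a log2 fold change of 0.68. Of 13 partners and regulators, Bsg, the chaperone subunit of monocarboxylate carriers (0.56), Ostm1 (0.67) and Cab39 (0.36) rose, and Arrdc3, an adaptor in the endocytosis of membrane proteins, fell (-0.58).

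Apart from Lyz2, markers of white blood cells were low beside those of platelets. The 10 platelet markers summed to 41579 to 46348 CPM in mutant against 33009 to 40271 CPM in wild-type libraries. Of them 4 rose and 2 fell, beside 12.9% and 9.16% of all genes. The rises were Itgb3 (0.67), Tubb1 (0.62), Ppbp (0.61) and Gp6 (0.42), and the falls Gp1ba (-1.08) and Gp9 (-0.40). The 10 B cell markers summed to 270 to 338 CPM in mutant against 343 to 462 CPM in wild-type libraries. Of these 10, 4 were lower (40%) and 0 higher, beside 9.16% and 12.9% of all genes. With the block 7 were lower, beside 18% of all genes. For 5 the mutant libraries lay wholly below the wild-type ones, beside 15.9% of all genes. None of the 10 B cell markers was at 0. The 6 listed T cell markers of 7 summed to 15.99 to 20.1 and 19.01 to 24.8 CPM, with none called. The 6 monocyte markers summed to 1776 to 2090 and 1163 to 1598 CPM, nearly all of it Lyz2, which rose (0.49), while Ly86 fell (-0.73). The 3 listed neutrophil markers of 9 summed to 11.5 to 18.6 and 11.1 to 17.003 CPM, with none called. The part of leukocyte RNA in the carriers that fell was not tested.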

How the data were processed

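Whole-number read counts per gene, with gene lengths, came from the tables the authors deposited for each library. The submitters' processing notes name CASAVA 1.8.2, Subread and featureCounts with mm10, and no source used here states the settings or the use of strand. Every listed gene has at least 0.5 CPM in at least 3 libraries. Entrez identifiers were named from RefSeq (GRCm38.p6) for 9636 genes and from GENCODE for 2, and 184 had no name.

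Genotype alone was modelled in edgeR 4.0.16 under R 4.3.3 (TMM scaling, robust quasi-likelihood, two-sided, adjusted over 9822 genes). No gene was filtered out. SE is the log2 fold change over the square root of F, from which approximate 95% intervals follow. The fit was also run on simulated counts, drawn with a common dispersion for all genes and no batch effect. That run therefore does not cover the batch differences of these data.

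By the labels each batch holds 1 pool per genotype, which pairs them. Deviations from group means correlated at 0.52, 0.35 and 0.547 within batches and at most at -0.0358 between them. Such deviations cancel out within each gene and genotype, so positive values within batches force lower ones between them. The contrast is therefore no separate test of the pairing. The mean chi-square per gene between libraries of 1 genotype was at least 14.5, above sampling noise.

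Named genes were 19 with platelet or red cell roles (13 listed), up to 12 rises and 12 falls among calls of at least 2 CPM, the 10 most abundant per kilobase, and the smallest p in families of at least 4 members. Members and lists were chosen with earlier results of these data known. Alternatives comprised other scalings and filters, DESeq2 1.42.0, voom in limma 3.58.1, left-out libraries or batches, and a batch block. Results for some members, counted in the totals, are not reported here.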

Additional observations from a re-analysis of the deposited data

How the results depend on the processing

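When only genes averaging 10 CPM or more were tested, 23 of 41 members (56.1%) were called, 17 higher and 6 lower, beside 49% of all genes tested. In the fit on all genes 18 of these 41 were higher and 2 lower. With the batch as a replicate block edgeR called 3929 genes, among them 62 members, 43 higher and 19 lower, and DESeq2 called 2484 genes, among them 35 members higher and 10 lower. Besides the calls named in the report, the block changed no call of a member named there by the rule. Without batch 1, 1197 genes and 25 members (15 higher) were called, and without batch 2, 1005 genes and 23 members (16 higher, 7 lower). Without batch 3, 2389 of 9788 genes and 44 of 132 members were called. Each of these fits left 4 libraries. Leaving out 1 library gave 1382 to 2276 genes, 29 to 42 members, 19 to 32 higher and 9 to 16 lower. Direction changed only for members that were not called. Slc4a1 had a log2 fold change of 0.29 by limma-voom, 0.0768 and 0.19 with the block in edgeR and DESeq2, 0.44 without batch 1, and -1.60 to 1.98 with 1 library left out (0.40, 0.35 and 1.98 for mutant 2, mutant 3 and wild type 1). Slc25a39 had -0.0499 with upper-quartile scaling, -0.0791 with library size alone, -0.15 among genes of at least 10 CPM, -0.0724 without batch 2, and -1.55 to 1.52 with 1 library left out (-0.49 and -0.38 for wild type 2 and 3). Slc25a37 ran from -1.35 to 1.03 with 1 library left out, positive for mutant 2 (0.18), mutant 3 (0.0990) and wild type 1 (1.03). Slc25a4 had -0.0723 among genes of at least 10 CPM, -0.00382 without batch 2 and -0.00142 to 0.13 with 1 library left out, and Slc3a2 -0.0335 among those genes and -8.83e-05 to 0.23 with 1 library left out. For Slc4a1, Slc25a37 and Slc25a39 a library left out unbalances batch 1 between genotypes. In the fit on genes of at least 10 CPM the TMM factors came from those genes alone. The part of this in its changes of direction was not tested, nor was the cause elsewhere. At 0.5 to 1 CPM a library held few counts of a member, and depth limits what could be detected there.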
